A study of Mus musculus with 6 samples.

Results

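A set of 8 white-fat genes was followed across mice: the adipokine genes Cfd and Retn, the lipid droplet and lipase genes Cidec and Ces1d, the glycerol 3-phosphate genes Pck1 and Gpd1, the cysteine dioxygenase gene Cdo1 and the cytochrome P450 gene Cyp2e1. They were chosen as genes abundant in white fat and have 8 rows (1 probe set each) in the authors' deposited table of 60 probe sets. The arrays hold 45037 probe sets that are not controls. Other rows of the 60 may also be expressed in fat cells, so the 8 do not stand for all fat genes there. The authors selected the 60 on the difference between treated and untreated mice on these same arrays, which was at least 2-fold in each row. Of the 45037 probe sets, 47 were at least 2-fold higher and 85 at least 2-fold lower in treated mice. The 2-fold limit alone thus does not give the 60. The treated-to-untreated differences of the 8 genes are therefore a description and carry no test.

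Transcripts were measured on 1 array per mouse in quadriceps of 6 mice, utrn+/-;mdx on C57BL/10, at 20 weeks of age. The treated group was 3 mice whose drinking water held spironolactone (37.5 mg/kg per day), which blocks the mineralocorticoid receptor, and lisinopril (10 mg/kg per day), which inhibits angiotensin-converting enzyme, between 4 and 20 weeks of age. The untreated group was 3 mice on plain water. Mice 1 and 2 of each group were male and mouse 3 was female. All 6 mice lacked dystrophin and carried 1 functional utrophin allele, a model of Duchenne muscular dystrophy, and there was no healthy or single-drug group among the samples used here.

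White adipocytes store triacylglycerol in a single large droplet, release fatty acids from it and secrete adipokines into the blood. Fat cells also lie between and within skeletal muscles, and in dystrophic muscle fat and connective tissue can take the place of lost fibres. Several of the 8 genes are not specific to fat. Cyp2e1, Pck1, Ces1d and Cdo1 are also abundant in liver, and Gpd1 is abundant in muscle fibres themselves.

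Each mouse gave 1 piece of whole muscle, so that a larger share of fat cells and more of these transcripts per fat cell cannot be told apart in any value that follows. Of 16 white adipocyte markers listed for this work, 3 are named in the authors' deposited table, Cfd, Retn and Cidec. Adipoq, Lep and Plin1 are not among its named rows, so the label of white fat rests on the 3 alone, whose mean log2 value was 8.77 to 10.5 in treated and 8.10 to 8.97 in untreated mice. Of 5 brown adipocyte markers 0 were named, and of 6 liver markers 2 were, Cyp2e1 and Pck1.

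The mean log2 value over the 8 genes was 9.58, 8.37 and 9.99 in treated mice 1 to 3, against 8.25, 7.63 and 8.22 in untreated mice 1 to 3. Treated mice 1 and 3 were high, and treated mouse 2 lay just above untreated mice 1 and 3. The group means were 9.31 ± 0.847 in treated mice and 8.03 ± 0.353 in untreated mice (SD, n = 3 each), a 2.43-fold difference. The order of the treated mice was the same for each gene: treated mouse 3 was highest of all 6 for 8 of 8 genes, treated mouse 1 was second for 8 of 8 and treated mouse 2 was the lowest treated mouse for 8 of 8. Untreated mouse 2 was lowest of all for 6 of 8, the exceptions being Cidec and Ces1d.

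**Figure D1:**
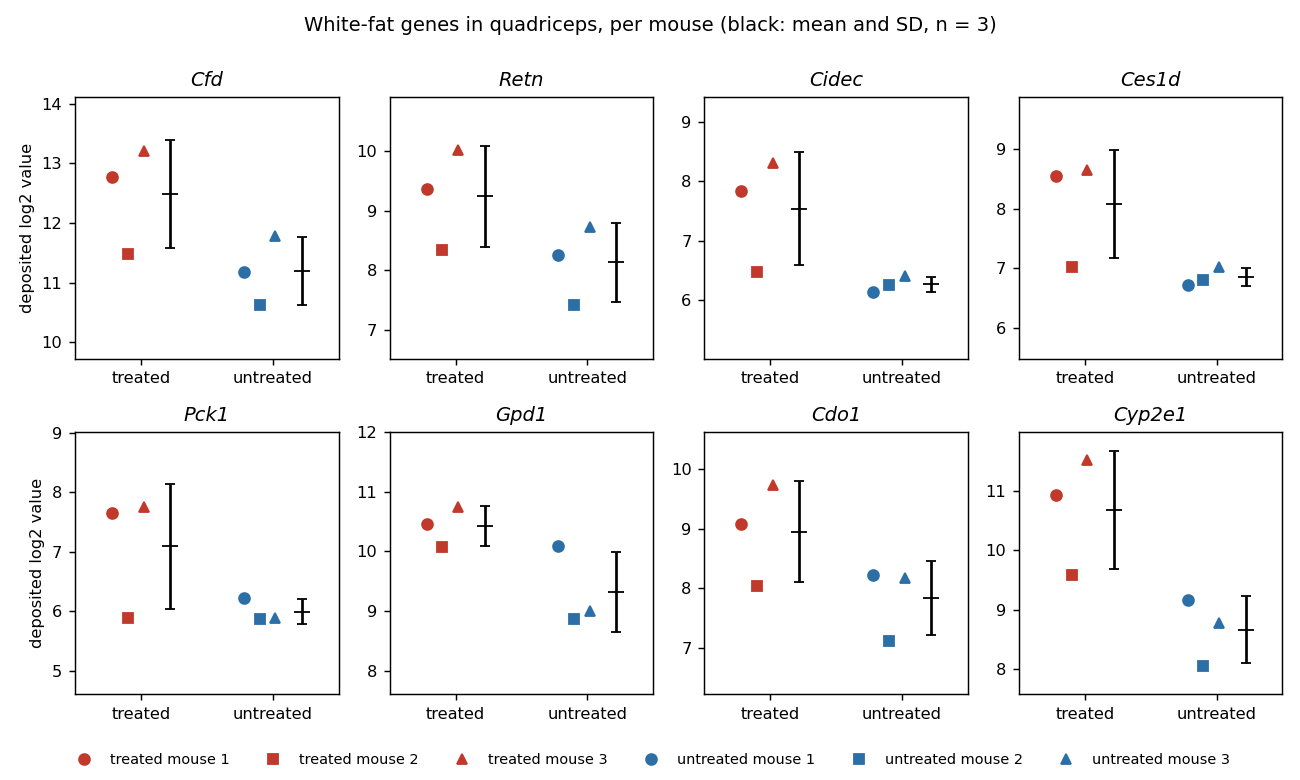
Deposited log2 value of each of the 8 genes in each mouse, treated mice left and untreated mice right, with the group mean and SD (n = 3) in black. Treated mouse 3 is highest in each panel, and treated mouse 2 lies near or within the untreated values for all genes but Cyp2e1.

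By selection, 8 of 8 genes had a treated mean at least 2-fold above the untreated mean, as did 0.104% of all probe sets (47 of 45037). The groups did not overlap for 3 of 8, Cidec, Ces1d and Cyp2e1, where 9.1% of all probe sets were without overlap and higher in treated mice. The median difference of the 8 was 1.17 on the log2 scale, and that of all probe sets was 0.032. Limma called 0 probe sets for treatment (lowest adjusted p = 0.603; 3443 at an unadjusted p under 0.05). The 60 selected rows began at 2.01-fold in the authors' deposited table; the member nearest that limit was Pck1 at 2.15-fold. The others were 2.16-fold to 4.04-fold higher.

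The promoters of 3 genes are shown. Of these, Cfd and Retn encode the adipokines, and Cyp2e1 had the largest difference of the 8. Cfd and Retn stayed within a range of 0.504 on the log2 scale of each other's course over the 6 mice. This is not particular to them, since Cidec with Ces1d (0.38) and Retn with Cdo1 (0.502) stayed closer. The sequences are from RefSeq (GRCm38.p6), run 5′ to 3′ on the gene's strand and hold 250 bases before and 50 after the start of the gene. They lie at chr10:79890603-79890902 (plus strand) for Cfd, chr8:3655520-3655819 (plus strand) for Retn and chr7:140763569-140763868 (plus strand) for Cyp2e1. Capitals mark a TATAAA motif on the gene's strand.
Cfd: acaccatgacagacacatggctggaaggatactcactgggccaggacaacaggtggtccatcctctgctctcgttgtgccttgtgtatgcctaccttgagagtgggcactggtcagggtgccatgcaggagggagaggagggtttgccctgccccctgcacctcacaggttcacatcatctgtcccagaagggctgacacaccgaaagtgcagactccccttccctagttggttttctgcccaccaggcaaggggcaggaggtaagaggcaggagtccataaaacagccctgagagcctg
Retn: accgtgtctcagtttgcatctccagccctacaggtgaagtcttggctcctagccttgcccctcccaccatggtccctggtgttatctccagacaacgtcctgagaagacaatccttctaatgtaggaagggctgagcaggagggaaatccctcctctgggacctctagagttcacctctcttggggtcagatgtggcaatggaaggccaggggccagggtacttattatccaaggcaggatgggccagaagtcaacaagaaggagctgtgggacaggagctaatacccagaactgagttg
Cyp2e1: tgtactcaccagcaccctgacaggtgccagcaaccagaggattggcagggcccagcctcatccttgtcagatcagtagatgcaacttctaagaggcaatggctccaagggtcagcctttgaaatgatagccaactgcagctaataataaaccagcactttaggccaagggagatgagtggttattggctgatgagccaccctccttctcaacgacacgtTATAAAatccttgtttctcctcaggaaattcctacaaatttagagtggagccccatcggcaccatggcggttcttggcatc

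Promoters of 5 of the 8 genes, 6 windows in all, were searched for 4 motifs. AGGNCA followed after 1 base by another AGGNCA, the direct repeat bound by PPARG with RXR, was found in 0 of the 6 windows and in 0.381% of all 32851 mouse promoters of this length. TTGCNNCAA, the C/EBP motif, was in 0 of 6 and in 2.08% of all. GNACA followed after 3 bases by TGTNC, the element of the glucocorticoid and mineralocorticoid receptors, was in 0 of 6 and in 0.475% of all. These 3 were searched on both strands. TATAAA was searched on the gene's strand and was in 1 of 6, at position -31 from the start of Cyp2e1, and in 8.32% of all. The letters say nothing about binding in these mice.

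Cfd encodes adipsin, the serine protease complement factor D that fat cells secrete. Its log2 values were 12.77, 11.48 and 13.22 in treated mice 1 to 3, against 11.17, 10.63 and 11.78 in untreated mice. The groups overlapped, because untreated mouse 3 was above treated mouse 2. The means were 12.49 ± 0.904 in treated and 11.19 ± 0.577 in untreated mice (SD, n = 3 each), a 2.45-fold difference. Among untreated mice Cfd ranged over 1.15 on the log2 scale.

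Retn encodes resistin, a small cysteine-rich hormone made by white adipocytes in mice. It had 9.36, 8.35 and 10.02 in treated mice, against 8.26, 7.41 and 8.72 in untreated mice. Here too untreated mouse 3 exceeded treated mouse 2 and the groups overlapped. The means were 9.24 ± 0.846 in treated and 8.13 ± 0.666 in untreated mice (SD, n = 3 each), a 2.16-fold difference. The difference between the log2 values of Cfd and Retn stayed within a range of 0.504 over the 6 mice. Of the 7-gene adipokine list, these were the 2 named, both with a higher treated mean.

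Cidec encodes a protein at the contact sites of lipid droplets, through which small droplets pass lipid to larger ones. It had 7.83, 6.48 and 8.30 in treated mice, against 6.14, 6.25 and 6.40 in untreated mice. The groups did not overlap, but the gap between treated mouse 2 and untreated mouse 3 was 0.0734. The means were 7.54 ± 0.948 in treated and 6.27 ± 0.131 in untreated mice (SD, n = 3 each), a 2.41-fold difference.

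Ces1d encodes a carboxylesterase that hydrolyses triacylglycerol in fat and liver. It had 8.55, 7.03 and 8.64 in treated mice, against 6.72, 6.81 and 7.02 in untreated mice. Treated mouse 2 was above untreated mouse 3 by 0.0064, a gap that was lost when each array was centred on its median. The means were 8.07 ± 0.909 in treated and 6.85 ± 0.152 in untreated mice (SD, n = 3 each). The untreated range was narrow for Cidec (0.261), Ces1d (0.296) and also Pck1 (0.365), against 1.11 to 1.31 for the other 5 genes. Cidec and Ces1d are the 2 named genes of the 13-gene lipid droplet and lipolysis list.

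Pck1 encodes the cytosolic phosphoenolpyruvate carboxykinase, which in fat cells supplies glycerol 3-phosphate from pyruvate for re-esterification of fatty acids. It had 7.65, 5.88 and 7.76 in treated mice, against 6.23, 5.87 and 5.88 in untreated mice. Treated mouse 2 lay within the untreated values, at 0.928 times the untreated geometric mean and below untreated mouse 1. The means were 7.10 ± 1.05 in treated and 5.99 ± 0.206 in untreated mice (SD, n = 3 each), a 2.15-fold difference that was 3.27-fold without treated mouse 2 and 1.71-fold without treated mouse 3. The untreated mean is below the array medians and is not known to be above background, which limits what these folds measure. Pck1 is also 1 of 3 named genes on a 10-gene list of corticosteroid-responsive genes, with Arrdc2 (higher mean in treated mice) and Lcn2 (lower).

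Gpd1 encodes the cytosolic glycerol-3-phosphate dehydrogenase, which makes glycerol 3-phosphate from a glycolytic intermediate in fat and also serves the redox shuttle of muscle. It had 10.46, 10.08 and 10.75 in treated mice, against 10.09, 8.86 and 9.0 in untreated mice. Untreated mouse 1 was slightly above treated mouse 2, and untreated mice 2 and 3 were low. The means were 10.43 ± 0.335 in treated and 9.32 ± 0.671 in untreated mice (SD, n = 3 each), a 2.16-fold difference. Its spread ran opposite to that of Cidec, Ces1d and Pck1, with a range of 0.668 among treated and 1.22 among untreated mice.

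Cdo1 encodes cysteine dioxygenase, which starts the oxidation of cysteine towards taurine and is abundant in liver and fat. It had 9.08, 8.04 and 9.74 in treated mice, against 8.22, 7.11 and 8.17 in untreated mice. Untreated mice 1 and 3 were above treated mouse 2. The means were 8.95 ± 0.856 in treated and 7.84 ± 0.627 in untreated mice (SD, n = 3 each), a 2.17-fold difference. Cdo1 was the only named gene of 7 on the cysteine and taurine list.

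Cyp2e1 encodes a cytochrome P450 that oxidises ethanol, acetone and other small molecules. It had 10.94, 9.59 and 11.52 in treated mice, against 9.17, 8.06 and 8.79 in untreated mice. It had the widest gap between the groups of the 8 genes, 0.424 between treated mouse 2 and untreated mouse 1. The means were 10.68 ± 0.991 in treated and 8.67 ± 0.563 in untreated mice (SD, n = 3 each), a 4.04-fold difference. Treated mouse 2 was 1.89 times the untreated geometric mean for Cyp2e1 and 1.70 times for Gpd1, while it was 0.928 to 1.22 times that mean for Cfd, Retn, Cidec, Ces1d, Pck1 and Cdo1.

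To see which genes moved along a single axis, each gene was set against the mean centred log2 value of the other 7 over the 6 mice. All points share the same 6 arrays, and selection on the group difference itself raises these correlations, so they are given without p. A gene was taken to follow the axis where Pearson's r was at least 0.9 both over the 6 mice and over deviations from the group means. By that rule 5 of 8 followed, Cfd, Retn, Pck1, Cdo1 and Cyp2e1, and 3 departed, Cidec, Ces1d and Gpd1. The first principal component of the 8 genes held 92.5% of their variance and the second held 4.0%.

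Within groups, Cyp2e1 and Cdo1 had the highest r of the 8. For Cyp2e1 r was 0.982 over the mice and 0.976 within groups. For Cdo1 r was 0.965 over the mice and 0.951 within groups. For Cfd it was 0.967 over the mice and 0.931 within groups. The axis was not equally steep for all genes: the slope on the mean of the others was 1.51 for Cyp2e1, against 0.959 for Cdo1, 1.05 for Cfd and 0.944 for Retn. Cyp2e1 was the steepest of the 8.

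The rule's limit fell inside a cluster of similar values. Pck1 passed with r = 0.906 within groups, while Cidec at 0.892 and Ces1d at 0.877 did not. On the linear scale, 2 to the power of the deposited value, the within-group r was 0.978 for Cidec, 0.925 for Ces1d and 0.934 for Pck1, and 7 of 8 genes followed. With Gpd1 left out of the axis, an alternative chosen after seeing the data, Cidec (0.917) and Ces1d (0.906) passed and Pck1 (0.899) did not.

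Gpd1 departed under the rule on both scales. Its r was 0.815 over the mice and 0.546 within groups, and 0.697 within groups on the linear scale. It departed under each of the 9 alternatives that held it. Some of these do not set it apart: by Spearman's rho all 8 departed, and without treated mouse 3 all but Cdo1 and Cyp2e1 did. Without untreated mouse 1 its within-group r was 0.968 and its r over the remaining mice was 0.891. Over the 21 pairs of the other 7 genes, r ranged from 0.86 to 0.991 (median 0.934). Over the 7 pairs with Gpd1 it ranged from 0.719 to 0.912 (median 0.755).

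**Figure D2:**
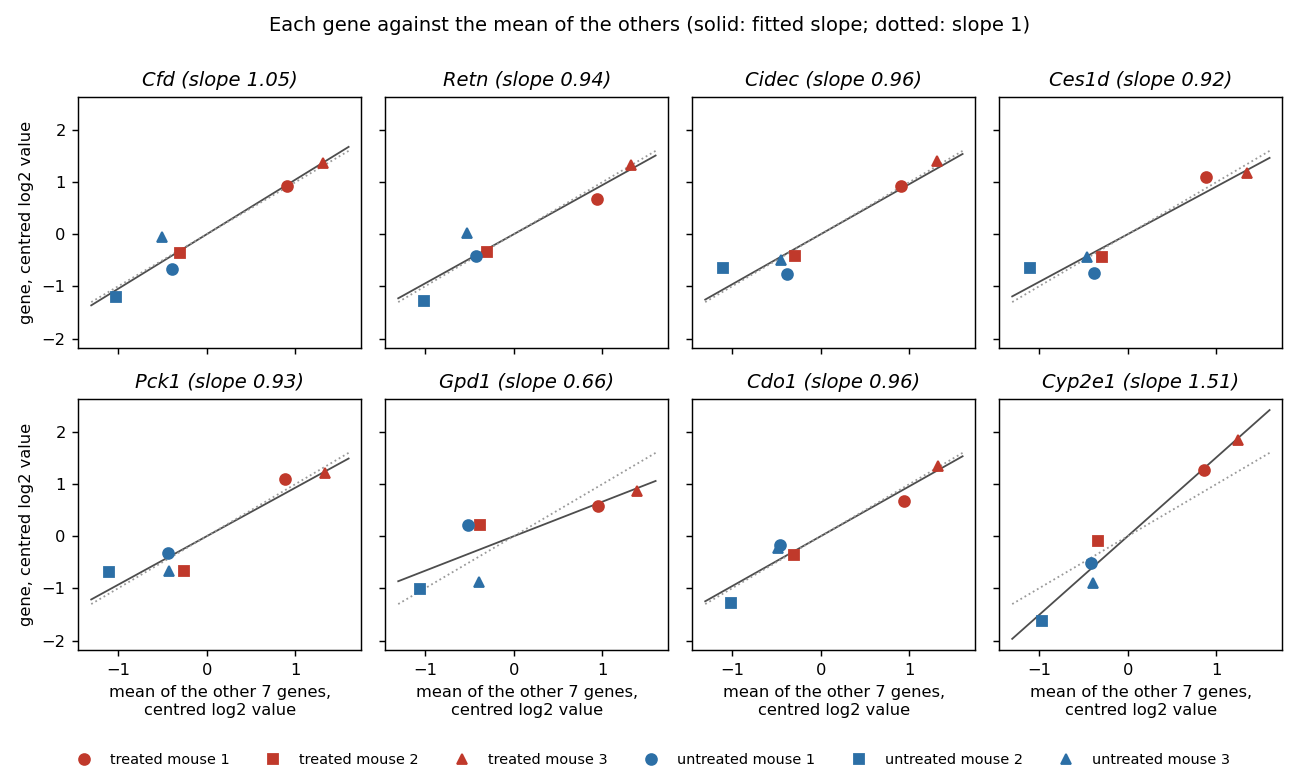
Each gene's log2 value against the mean centred log2 value of the other 7 genes, 1 point per mouse, with the least-squares line. Cyp2e1 has the steepest line (slope 1.51), Cidec and Ces1d are flat among untreated mice, and Gpd1 scatters most about its line.

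The agreement rested in part on the distance of treated mice 1 and 3 from the rest. Over the other 4 mice r was 0.921 for Cdo1, 0.896 for Cyp2e1, 0.82 for Retn and 0.753 for Cfd. It was 0.33 for Cidec, 0.374 for Ces1d, 0.254 for Pck1 and 0.567 for Gpd1 over the same 4 mice. Among the 3 untreated mice alone the slope on the axis was 2.0 for Cdo1, 1.83 for Retn, 1.6 for Cyp2e1, 1.26 for Cfd and 0.83 for Gpd1. It was 0.0 for Cidec, 0.052 for Ces1d and 0.274 for Pck1, whose untreated means of 6.27, 6.85 and 5.99 are near the array medians of 6.07 to 6.13. RMA compresses differences at low levels, no detection calls were used, and the part of this in the flat slopes was not tested. Among the 3 treated mice these 7 genes had slopes of 0.981 to 1.25, and Gpd1 had 0.355.

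Residuals from each gene's line place the departures in single mice. Gpd1 was above its line by 0.556 in untreated mouse 1 and by 0.46 in treated mouse 2, and below it in untreated mouse 3 (residual -0.613). Untreated mouse 3 was the reverse for the adipokines, at 0.525 above the line for Retn and 0.473 for Cfd. Cidec and Ces1d were both below the line in untreated mouse 1 (-0.399 and -0.394) and above it in untreated mouse 2 (0.415 and 0.36). In treated mouse 2, Pck1 was below its line (-0.42) and Cyp2e1 was above it (0.425).

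**Figure D3:**
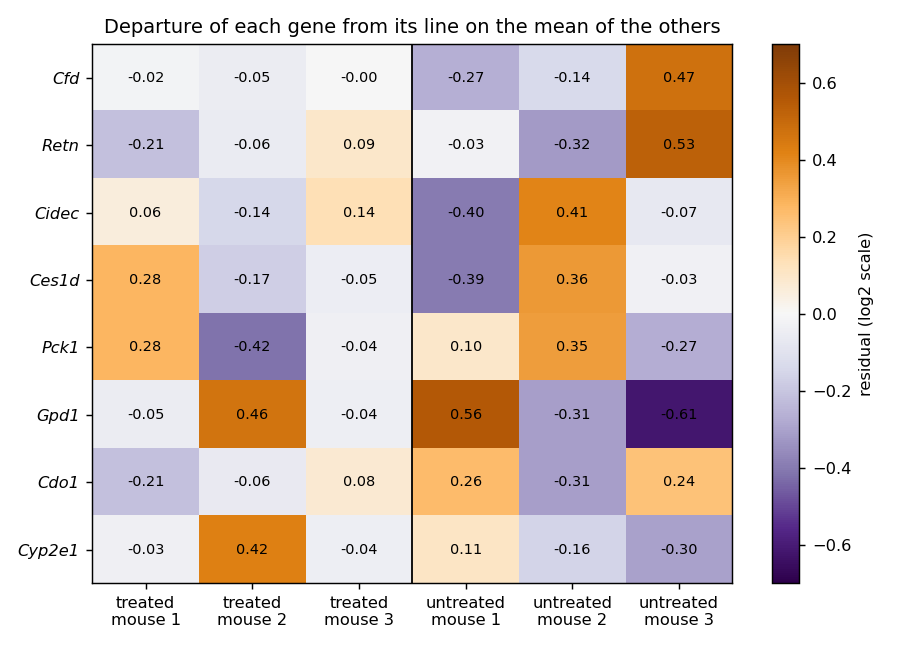
Residual of each gene, on the log2 scale, from its line on the mean of the other 7 genes, treated mice left of the black line and untreated mice right. Gpd1 has the lowest residual, -0.613 in untreated mouse 3, where Cfd and Retn have their highest.

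The genes were then compared within each mouse, where an amount shared equally by all genes of a mouse drops out. The difference between the log2 values of Cidec and Cfd had an SD of 0.044 among treated mice and 0.508 among untreated mice. That between Cdo1 and Retn had an SD of 0.013 among treated and 0.251 among untreated mice. Over all 28 pairs the SD was smaller among treated mice for 25, with a median of 0.232 in treated and 0.524 in untreated mice. These pairs were picked for display after their values had been seen, and the 28 share 8 genes and 6 mice, so no test was made.

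A few differences moved by group or by mouse. Cyp2e1 relative to Cfd was higher in treated mice by 0.72 on the log2 scale, with each treated mouse above each untreated mouse. This is the gap between the group differences of 2 selected genes, so it is a description only. Cyp2e1 was also steeper on the axis (slope 1.51, against 1.05 for Cfd), so the shared amount does not fully drop out here. Overlap was not counted for the other pairs. Gpd1 relative to Cfd, centred on the mean of the 6 mice, was 0.573 in treated mouse 2, and 0.887 in untreated mouse 1. It was -0.5 in treated mouse 3 and -0.813 in untreated mouse 3. Its group means differed by less than its spread within groups (SD 0.581 in treated and 0.856 in untreated mice).

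**Figure D4:**
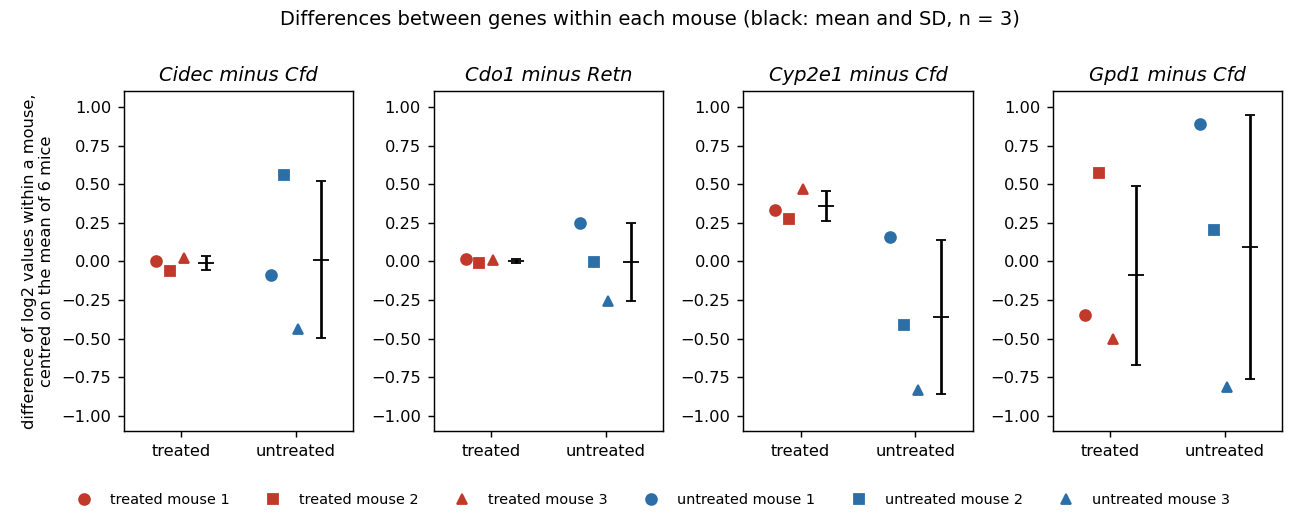
Difference between the log2 values of 2 genes within each mouse, centred on the mean of the 6 mice, with the group mean and SD (n = 3) in black. Cidec minus Cfd and Cdo1 minus Retn are tight among treated mice (SD 0.044 and 0.013) and spread among untreated mice (SD 0.508 and 0.251).

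Sex was balanced between the groups, so its contrast was not used to select the genes. Limma, with treatment as a term, called 0 of 8 for female minus male at an adjusted p under 0.05, as against 0.00888% of all probe sets (4 of 45037). At an unadjusted p under 0.05 there were 2 of 8, the adipokines, where 4.8% of all probe sets were at that level. For Retn the difference was 1.03 on the log2 scale (SE 0.329; limma unadjusted p = 0.0171, adjusted p = 0.849). For Cfd it was 0.99 (SE 0.344; limma unadjusted p = 0.0244, adjusted p = 0.849). The female was the highest mouse in each group for both genes, and likewise for Cidec and Ces1d.

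For the other genes the female-minus-male difference was 0.84 for Cdo1, 0.72 for Cyp2e1, 0.68 for Cidec, 0.55 for Ces1d and 0.41 for Pck1. It was 0.0026 for Gpd1 (SE 0.364; limma adjusted p = 0.999). With 1 female in each group, sex cannot be told apart from those 2 mice. Without treated mouse 3 the estimate was 0.88 for Retn, 0.88 for Cfd and 0.18 for Cyp2e1. Without untreated mouse 3 it was 1.17, 1.09 and 1.26. These fits rest on 1 female. At an unadjusted limma p under 0.05 there was 1 of 8 genes without untreated mouse 2, where 2019 of 45037 probe sets were. There were 4 of 8 without untreated mouse 1, where 1272 of 45037 were. Untreated mouse 3 was also the array least correlated with the rest (mean r 0.983).

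The interaction of treatment with sex was called for 0 of 8 genes, all with a limma adjusted p of 1, and 0 of 8 had an unadjusted p under 0.05. Over all probe sets limma called 0.0% (0 of 45037), with 2325 at an unadjusted p under 0.05. The largest estimates were 1.16 for Pck1 (SE 0.909) and 1.08 for Cyp2e1 (SE 0.883) on the log2 scale. With 1 female in each group, these errors rest on the spread between males, and females were assumed to vary like them. Each standard error was near the size of its estimate, so a sex-dependent difference of 2-fold would not have been detectable.

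Pyruvate carboxylase, which feeds oxaloacetate to the reaction of Pck1 and belongs to the 4-gene glycerol 3-phosphate list, has 4 probe sets among the array's controls and was not selected by the authors. Their mean log2 value was 7.76, 7.39 and 7.81 in treated mice, against 7.63, 7.24 and 7.23 in untreated mice. The same mice were high as for the 8 genes, treated mice 1 and 3, and the groups overlapped through untreated mouse 1. The means were 7.65 ± 0.228 in treated and 7.37 ± 0.224 in untreated mice (SD, n = 3 each), a 1.22-fold difference (exact two-sided permutation p = 0.2, where 3 against 3 mice allow 0.1 at the lowest). Over the 6 mice its r was 0.872 with the mean of the 8 genes and 0.932 with Gpd1, the highest of the 8, against 0.757 with Cfd, the lowest. The 4 probe sets differed in this. The one at the 3' end had r = 0.725 with Gpd1 and 0.884 with the mean of the 8 genes. The others had r of 0.884 to 0.939 with Gpd1 and 0.767 to 0.84 with that mean. Gpd1 was also the gene of the 8 most correlated with the labelling of spike RNAs, given below. The part of labelling in this likeness was not tested.

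Of the other 46 rows of the authors' deposited table with a single gene symbol, 1 followed the mean of the 8 genes at r of at least 0.9 over the 6 mice. This was Mybph, myosin binding protein H and the 1 named gene of 7 fast-fibre markers (r = 0.921), with 11.99, 11.64 and 12.64 in treated mice, against 11.16, 10.40 and 11.58 in untreated mice. None had r of at most -0.9, and the lowest was -0.829 for Mbp, myelin basic protein and the 1 named gene of 4 Schwann cell markers. Among all probe sets outside the 8 genes, 789 (1.75%) had r of at least 0.9. Of the 39 that were at least 2-fold higher in treated mice, 6 were among them.

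The named genes nearest to Gpd1, chosen after their values were seen, were Gpt2 (r = 0.977), the mitochondrial alanine aminotransferase, and Jph2 (r = 0.976), a junctophilin of the muscle triad. Gpt2 had 10.72, 10.49 and 10.65 in treated mice, against 10.24, 9.19 and 9.30 in untreated mice. Like Gpd1 it was low in untreated mice 2 and 3 and closer to the treated mice in untreated mouse 1. Gpt2 had r = 0.779 with the mean of the 8 genes and Jph2 had 0.761.

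Some markers of other cells are among the selected rows, and limma called none of them. Of 8 slow-fibre markers 5 were named, each with a lower treated mean, and their combined level, a mean of log2 values, was 7.37 to 8.89 in treated and 8.26 to 11.6 in untreated mice. The named neutrophil marker, Lcn2 (1 of 5), had 6.74 to 7.01 in treated and 7.87 to 10.7 in untreated mice. Macrophage, fibroblast and endothelial lists had 0 named genes, so their levels are not given here. Of 11 lipogenic genes Thrsp had a higher and Mid1ip1 a lower treated mean. The part of these cell types in the values of the 8 genes was not tested.

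All 8 treated means stayed above the untreated means with any 1 mouse left out, which selection on these same arrays made likely. Without treated mouse 3, however, the difference reached 2-fold for 1 of 8 genes, Cyp2e1 (3.02-fold). Without untreated mouse 2 it reached 2-fold for 5 of 8. Without treated mouse 2 all 8 were at least 2-fold and free of overlap between groups, with Cyp2e1 at 5.90-fold. With fewer mice groups separate more easily, and the share of all probe sets free of overlap was not counted in that setting. Gpd1 was at 2.82-fold without untreated mouse 1. Limma array weights gave 6.34-fold for Cyp2e1, 3.73-fold for Cfd, 3.52-fold for Retn and 3.50-fold for Cdo1. The weight was largest for treated mouse 3 (3.54), highest of all mice for 8 of 8 genes. Next was untreated mouse 2 (1.65), lowest of all for 6 of 8, and the other mice had 0.445 to 0.942. The weighted folds thus lean on these 2 mice.

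**Figure D5:**
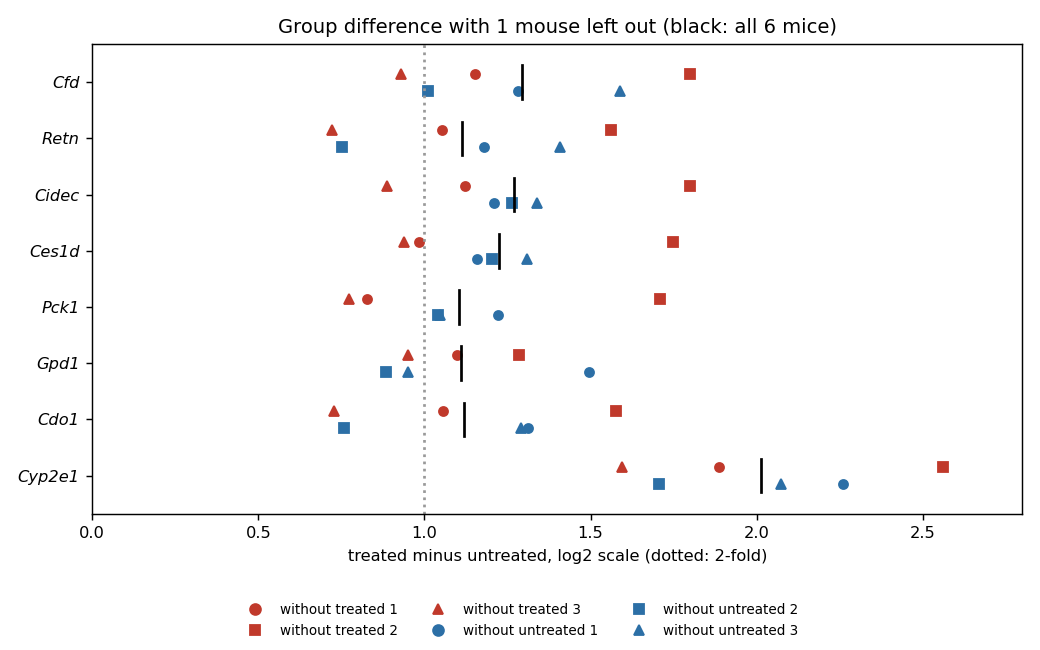
Treated minus untreated difference of each gene on the log2 scale with 1 mouse left out (coloured points) and with all 6 mice (black bar); the dotted line marks 2-fold. All points lie above 0, and the points without treated mouse 3 lie under the dotted line for each gene but Cyp2e1.

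Poly-A spike RNAs, added to follow labelling, have probe sets at both ends, and the 3' end exceeded the 5' end (mean log2 difference of 4 spikes) by 1.32, 1.52 and 1.53 on treated arrays and 1.44, 1.69 and 1.76 on untreated arrays. With it as a term the mean difference of the 8 genes was 2.13-fold, and 5 of 8 stayed at 2-fold or more. The lowest of the 8 was then Gpd1 at 1.59-fold. Over the mice, Gpd1 also had the strongest r with this spike difference (-0.815), against -0.409 to -0.647 for the other genes. The part of labelling in these values was not tested further.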

How the data were processed

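Quadriceps RNA of 6 mice was amplified from 100 ng, labelled with biotin and hybridised to Affymetrix arrays, per the labels' protocols. Values were used as deposited, as log2 expression values. Tools listed in the submitters' processing notes, without role, order or version, are Transcriptome Analysis Console, Affymetrix Expression Console and RMA, which usually corrects background, quantile-normalizes arrays and summarizes probes. A shift shared by most genes is then lost, and differences of dim genes are compressed. Neither annotation version nor genome build is stated in the sources used here. Depth has no meaning for arrays, whose number limits the precision.

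Gene names came from the authors' deposited table of 60 probe sets, whose log2 values differed from the full value table by at most 0.00033. Other probe sets were only counted. Its fold changes, given as linear ratios by the authors, supplied the lowest selected fold. The 8 genes, the lists and the tests were chosen with earlier results of these data known. Named genes are the 8, the listed genes among the 60 rows, and up to 6 others with r of at least 0.9 (2 with r of at most -0.9) with the mean of the 8. Gpt2 and Jph2 fall outside this rule and were named for their likeness to Gpd1 after their values were seen.

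Of 45101 probe sets, 64 controls were left out of the fits. The remaining 45037 were tested in limma 3.58.1 (R 4.3.3, lmFit and eBayes), two-sided, and p-values were adjusted over all of them by Benjamini-Hochberg (threshold 0.05), and the fit was tested on simulated data. P-values measure the spread between mice, and those for the interaction measure it between males only. Alternatives were single mice left out, a replicate block, median centring, array weights, a spike term, a filter at a mean log2 of 6, an ordinary analysis of variance, the linear scale, ranks and the authors' 60-row values.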

Additional observations from a re-analysis of the deposited data

How the results depend on the processing

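Over 72 recalculations of the 8 genes' differences, 0 changed direction, which selection on these same arrays made likely. The recalculations share 8 correlated genes and the same mice, so they are not 72 separate checks. The size of the changes is not compared with the SD between mice, because leaving out 1 of 3 mice cannot move a group mean by its SD. The replicate block and the authors' 60-row values give the same differences by construction and are not counted. The mean of the 8 genes was 1.92-fold to 3.37-fold higher with 1 mouse left out, and 3.43-fold with array weights, which weighted treated mouse 3 most. The count of probe sets at least 2-fold higher, 47, was 76 with array weights and 32 to 124 with 1 mouse left out. The ordinary analysis of variance called 1 probe set for treatment, where limma called 0. With a replicate block limma also called 0, with 5124 at an unadjusted p under 0.05. The block lowered the standard error of the difference for each of the 8 genes. Deviations of same-numbered mice 1 to 3 correlated at 0.517, -0.082 and 0.183. Same-numbered mice share sex (mouse 3 is female in both groups), which the block takes in. Whether the numbers pair the mice beyond sex was not tested. With 1 mouse left out, the groups did not overlap for 3 to 8 of the 8 genes, and 2 to 7 followed the axis. The share of all probe sets without overlap was not counted in those settings. With 1 male left out, 1 to 4 of the 8 were under an unadjusted limma p of 0.05 for sex, where 1163 to 5112 of 45037 probe sets were. The unadjusted count for the interaction also changed with some males left out. Such fits leave 1 male in a group, so only estimates on the log2 scale are given. Without treated mouse 1 they were 2.04 for Pck1, 1.62 for Cidec and 1.37 for Ces1d. Without treated mouse 2 they were 0.28, 0.27 and -0.16. For Gpd1 the estimate was 1.57 without untreated mouse 2 and 0.34 without untreated mouse 1. By Spearman's rank correlation 0 of 8 followed the axis. The cause of these changes was not tested. The interaction could not be fitted without a female. The 3 mice per group, and names limited to the selected rows, limit what can be seen.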
